A study of Mus musculus with 4 samples.

Results

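The calcium/calmodulin-dependent protein kinases (CaM kinases) were examined as 10 genes of a deposited expression table of 23453 genes from cultured mouse hippocampal neurons. They were chosen by gene name: the CaMKI genes Camk1, Camk1d and Camk1g, the gene Camk4 of CaMKIV, the CaMKK genes Camkk1 and Camkk2, and the CaMKII genes Camk2a, Camk2b, Camk2d and Camk2g. All 10 names were found, each in 1 row. The AP bursting group received 50 µM bicuculline and was harvested after 4 h. Bicuculline antagonizes GABA-A receptors, and a network freed of inhibition fires bursts of action potentials (AP). The control group was given the solvent DMSO and kept its basal activity. Each group has 2 libraries, and both were grown from newborn C57BL/6NCrl mice and treated on day 12 in culture. The design text gives 2 separate experiments, each with its own cells.

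Calcium that enters an active neuron binds calmodulin, and calmodulin opens the catalytic site of these kinases. CaMKII assembles from its subunits into a large ring, phosphorylates itself, and is required for long-term potentiation at hippocampal synapses. CaMKI and CaMKIV act in a cascade in which a CaMKK must phosphorylate them as well. CaMKI is known for growth of axons and dendrites, and CaMKIV, a nuclear enzyme, phosphorylates the transcription factor CREB. Activity of the enzymes is set by calcium and phosphorylation, which an RNA measurement does not see.

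The table holds 1 mean of normalized reads per gene and group. The libraries behind a mean were worked back from its digits, which succeeded in both groups for 8 of the 10 kinases. In each group the library with more reads is called deep and the other shallow. The correlation of log2 levels over the 13648 resolved genes whose mean reached 50 was r = 0.873 for the AP bursting libraries and 0.906 for the controls. It was 0.962 for the deep pair and 0.936 for the shallow pair, each made of an AP bursting and a control library. Each library therefore resembled its partner of like depth more than the other library of its group, and folds are given for the deep and the shallow pair. Whether sequencing depth or the separate experiments lie behind these pairs was not tested. Which pair is which experiment is not known from the labels. Genes resolved in both groups sum to 21504931 (deep) and 10903438 (shallow) reads after AP bursting, against 20884480 (deep) and 13295328 (shallow) in controls. With separate preparations the p-values below speak for 2 experiments only. Per-library reads of the 8 kinases ran between 230 and 7581. The fewest, 230 reads, has an exact Poisson 95% interval of 201.2 to 261.7, which covers counting error only. All 8 immediate-early and other activity-regulated genes listed to check the stimulus passed in the authors' deposited table, with Fos at a fold of 192 (adjusted p = 1.15e-21).

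Of the 10 kinases, 0 passed the threshold of 0.05 in the authors' deposited table, and all 10 had an adjusted p of 1 there. Of all its genes 0.61% passed upwards and 0.0% downwards. The smallest fold that passed there was 4.00, and of 701 genes with a fold of 1.5 to 2 and a mean of at least 50, 0 passed. On the libraries, limma with group alone called 0 of the 8 resolved kinases (adjusted p = 1 for each), and 0 had an unadjusted p below 0.05. That fit called 0.00989% of 20226 genes higher and 0.0% lower. With the deep and shallow pair as a replicate block, a pairing inferred from the data, limma called 1 kinase higher and 0 lower, and 1 had an unadjusted p below 0.05, as did 23.2% of all genes in that fit. The background of the block fit was 6.87% of genes higher and 6.1% lower, so 1 call among 8 is not a result about the family. The called gene was Camk1g.

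Camk1g encodes CaMKI-gamma, a CaMKI that is anchored to membranes by lipid and known for dendrite growth. It stood at 1136 and 1229 normalized reads in the deep and shallow libraries after AP bursting, against 602 and 874 in the deep and shallow controls. Both AP bursting libraries lay above both controls. The group values were 1183 ± 65.9 normalized reads after AP bursting and 738 ± 192 in controls (SD, n = 2 each), a deposited fold of 1.60. The deep pair gave a log2 fold of 0.92 and the shallow pair 0.49. The limma log2 fold was 0.70 with a 95% interval of -0.24 to 1.65 without the block (adjusted p = 1) and of 0.33 to 1.08 with it (adjusted p = 0.00354). With the block but no variance trend across genes the adjusted p was 0.287, so the call rests on that trend. Of the 13939 genes whose deposited mean reached 50, 7.5% had a larger deposited fold than Camk1g, and 9.15% had a fold of at least 1.5.

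A ratio between 2 genes of the same library does not depend on how libraries were scaled. Camk1g was set against each of the 7 other resolved kinases in this way. All 7 ratios were higher after AP bursting in both pairs, and in 4 of them both AP bursting libraries exceeded both controls. Camk1g had the largest fold of the resolved kinases in each pair. The rise of all 7 ratios follows from that by arithmetic and is no separate evidence. The 4 have no background beside them, as ratios between other genes were not computed. Against Camk1 the ratio was 3.30 and 3.53 in the deep and shallow libraries after AP bursting and 2.01 and 2.79 in the deep and shallow controls. Against Camkk1 it was 0.870 and 0.932 after AP bursting and 0.670 and 0.536 in controls. Against Camk1d the ratios overlapped, at 0.190 and 0.333 after AP bursting and 0.108 and 0.298 in controls. These ratios share the numerator and were chosen after the values of Camk1g were seen.

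Camk1, the gene of CaMKI-alpha, was the other kinase whose groups did not overlap. It stood at 344 and 348 normalized reads in the deep and shallow libraries after AP bursting, against 299 and 313 in the deep and shallow controls. The step was small, with a deposited fold of 1.13, and the limma interval ran from -0.76 to 1.11 on the log2 scale. The block interval was -0.26 to 0.62 (adjusted p = 0.72). Groups that do not overlap with AP bursting higher were found in 2 of 8 resolved kinases and in 12.6% of 20226 genes, and groups with AP bursting lower in 0 of 8 kinases and 11.7% of genes. Of the exon bases of Camk1, 3.88% are shared with Ogg1 on the other strand, a DNA repair gene at 86.6 normalized reads after AP bursting and 91.8 in controls, and the libraries did not keep strand.

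Camk1d, the gene of CaMKI-delta and the most abundant of the CaMKI genes, stood at 5968 and 3693 normalized reads in the deep and shallow libraries after AP bursting. Its deep and shallow controls held 5569 and 2932. The groups overlapped, since deep and shallow libraries differed far more than treatments. Its deposited fold was 1.14, and the block interval ran from -0.10 to 0.53 on the log2 scale (adjusted p = 0.466).

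Promoters are shown for Camk1g and Camk1 because they are the kinases whose groups did not overlap. The sequences, from RefSeq on build GRCm38.p6, run from 250 bases before to 50 after the gene start on the minus strand, at chr1:193370233-193370532 for Camk1g and chr6:113343873-113344172 for Camk1. Capitals mark TGACG, the core of the cAMP response element (CRE) that CREB binds, on either strand.
Camk1g: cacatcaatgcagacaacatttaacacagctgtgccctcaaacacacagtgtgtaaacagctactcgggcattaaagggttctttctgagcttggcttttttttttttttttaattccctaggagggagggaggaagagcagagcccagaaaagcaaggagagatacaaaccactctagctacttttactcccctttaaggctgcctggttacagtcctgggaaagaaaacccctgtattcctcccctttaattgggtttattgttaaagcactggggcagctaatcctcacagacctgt
Camk1: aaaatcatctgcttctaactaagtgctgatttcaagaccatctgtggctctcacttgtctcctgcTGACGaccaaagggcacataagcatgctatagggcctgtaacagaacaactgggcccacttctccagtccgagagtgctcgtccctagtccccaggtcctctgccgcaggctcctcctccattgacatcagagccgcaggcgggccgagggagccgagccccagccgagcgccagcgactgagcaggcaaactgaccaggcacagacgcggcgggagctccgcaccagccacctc
The Camk1g window holds 44.7% G and C and the Camk1 window 60.0%, against a median of 52.7% over 32851 promoter entries. The CRE core was found once in the Camk1 window, from base -185 relative to the gene start, and not in the Camk1g window. Camk2g was not searched, and neither were Camk2a and Camk4. Over 8 entries of the 7 other kinases, both strands, TGACG was present in 2 entries (Camk1 and Camkk1), against 20.81% of all entries. The full CRE TGACGTCA (1.79% of all entries), the AP-1 motif TGANTCA (7.81%) and a fixed sequence of the serum response element (0.06%) were in 0 of the 8. Other forms of the serum response element were not searched, so its absence from these promoters is not shown. The GC box GGGCGG was in 6 of 8 entries, against 35.66% of all. TGACG is part of TGACGTCA, so these counts overlap, and the authors' counting used build mm9.

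Camk4 stood at 2360 and 1449 normalized reads in the deep and shallow libraries after AP bursting, against 2446 and 1311 in the deep and shallow controls. The gene was lower in the deep pair and higher in the shallow one, by -0.05 and 0.14 on the log2 scale, and its groups overlapped. Its deposited fold was 1.01. The log2 interval was -0.30 to 0.39 with the block (adjusted p = 0.926) and -1.13 to 1.22 without it. An antisense transcript covers 2.21% of its exon bases.

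The CaMKK genes encode the upstream kinases that switch on CaMKI and CaMKIV, and CaMKK2 also activates AMPK. Camkk1 stood at 1305 and 1318 normalized reads in the deep and shallow libraries after AP bursting, nearly equal, against 899 and 1632 in the deep and shallow controls. Both AP bursting values lay between the controls. The pairs moved in opposite directions, with a log2 fold of 0.54 for the deep pair and -0.31 for the shallow pair, the widest disagreement among the 8 resolved kinases, and a deposited fold of 1.04. Camkk2 stood at 1146 and 1800 normalized reads in the deep and shallow libraries after AP bursting, against 1192 and 1503 in the deep and shallow controls. Its pairs also split in sign, with log2 folds of -0.06 and 0.26 and a deposited fold of 1.09. The block fit gave an adjusted p of 0.793 for Camkk1 and 0.818 for Camkk2.

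**Figure D1:**
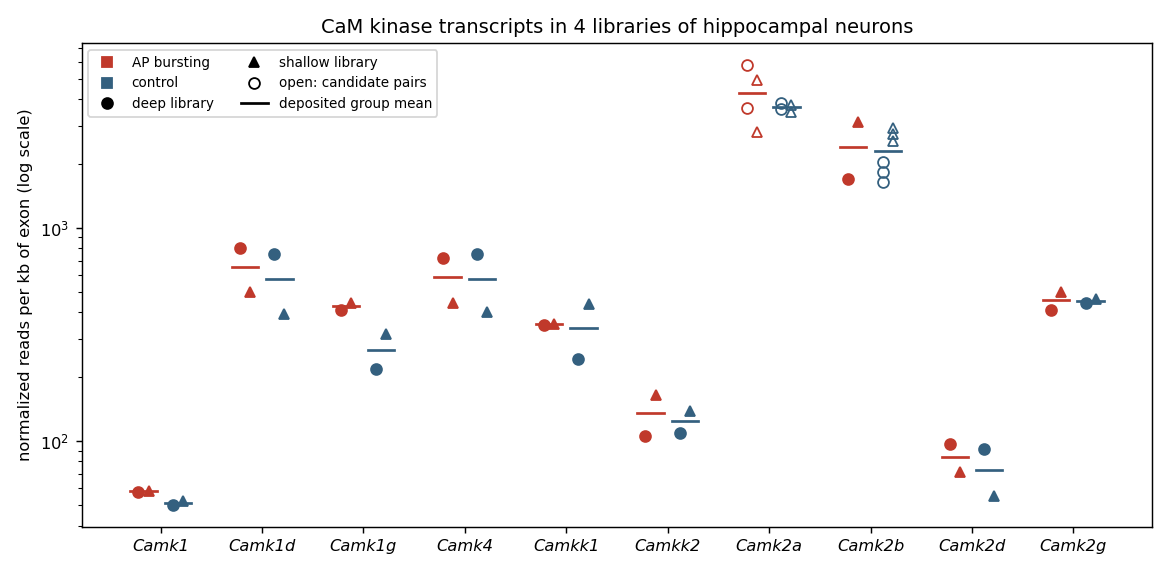
Normalized reads per kilobase of exon (log axis) of the 10 CaM kinase genes, AP bursting in red and control in blue, circles for deep and triangles for shallow libraries, bars for the deposited group means. Open symbols are candidate values where a mean fits several read pairs. Camk2a and Camk2b lie above the other 8, and both AP bursting libraries exceed both controls for Camk1 and Camk1g.

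CaMKII transcripts dominated the family. Per kilobase of exon, Camk2a, the alpha subunit typical of excitatory forebrain neurons, stood at 4290 normalized reads after AP bursting and 3669 in controls. Camk2b, the beta subunit that binds actin, stood at 2403 after AP bursting and 2286 in controls. By this measure they ranked 253 and 555 after AP bursting, and 270 and 499 in controls, of 12957 genes with a mean of at least 50 and a known exon length. Camk1d and Camk4 followed at 650 and 584 after AP bursting and 572 and 576 in controls. Camk2g had 456 and 453, Camk1g 429 and 267, and Camkk1 352 and 339 per kilobase after AP bursting and in controls. Lowest were Camkk2 (135 and 123), Camk2d (84.0 and 73.0) and Camk1 (57.9 and 51.2). The order in AP bursting and control libraries differed in 2 places: Camk1d and Camk4 changed ranks, and so did Camk1g and Camkk1. Camk1d had 804 and 497 per kilobase in the deep and shallow libraries after AP bursting, against 750 and 395 in the deep and shallow controls. Camk4 had 724 and 444.5 after AP bursting, against 751 and 402 in controls, so the order of these neighbours is within the spread. Exon lengths join the exons of every annotated transcript, which lowers the value of a gene with long unused exons. Camk2d has 22493 such bases, Camk2b 9125, and the other CaMKII genes fewer.

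The deposited means of Camk2a were 32025 normalized reads after AP bursting and 27390 in controls, a fold of 1.17. Its libraries could not be settled. The AP bursting mean fits 2 read pairs, 43131 deep with 20918 shallow or 27209 deep with 36840 shallow. The control mean also fits 2, 28591 with 26190 or 26794 with 27987 normalized reads. Over the 4 combinations the limma log2 fold lay between 0.13 and 0.21, and the lowest adjusted p was 1 without and 0.392 with the block. With the block, the lowest bound of the 4 95% intervals was -0.14 and the highest 0.48, from different combinations, and each interval included 0.

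Camk2b had deposited means of 21931 normalized reads after AP bursting and 20858 in controls, a fold of 1.051. Its AP bursting libraries were settled at 15368 deep and 28494 shallow. Its control mean fits 3 pairs, with 14884 to 18478 normalized reads in the deep and 23237 to 26831 in the shallow library. Under each of the 3 pairs the deep library was the lower one in both groups and the groups overlapped, with an adjusted p of at least 0.855 with the block. Of 321 genes with a mean of at least 10000 normalized reads, 86.9% had a deposited fold above 1, so that direction is common in this range. Whether folds of 1.17 and 1.051 are usual in size there was not examined.

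Camk2d and Camk2g are the more widely expressed CaMKII genes. Camk2d stood at 2169 and 1612 normalized reads in the deep and shallow libraries after AP bursting, against 2050 and 1234 in the deep and shallow controls. It was higher in both pairs (log2 folds of 0.08 and 0.39), its groups overlapped, and its deposited fold was 1.15 (block adjusted p = 0.48). Camk2g stood at 2628 and 3204 normalized reads in the deep and shallow libraries after AP bursting, against 2845 and 2960 in the deep and shallow controls. The pairs cancelled, at -0.11 and 0.11 on the log2 scale, and the deposited fold was 1.00. Its log2 interval was -0.33 to 0.33 with the block and -0.85 to 0.85 without it.

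The summed level of the 4 CaMKII genes was 58762 normalized reads after AP bursting and 52792 in controls, a ratio of 1.11. Camk2a held 54.5% of the sum after AP bursting and 51.88% in controls. Camk2b held 37.32% and 39.51%, Camk2g 4.96% and 5.5%, and Camk2d 3.22% and 3.11% in the same order of groups. The largest shift was 2.62 percentage points, for Camk2a. Under the possible read pairs the share of Camk2a in single libraries lay between 38.57% and 68.14% after AP bursting. In controls it lay between 45.78% and 59.11%. These ranges join read pairs that exclude each other. With 1 AP bursting pair the deep and shallow libraries held 68.14% and 38.57%, with the other 57.44% and 52.52%. The spread between libraries is therefore not settled. The deposited ratio of Camk2a to Camk2b was 1.46 after AP bursting and 1.31 in controls, with no test, as group means carry no spread.

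**Figure D2:**
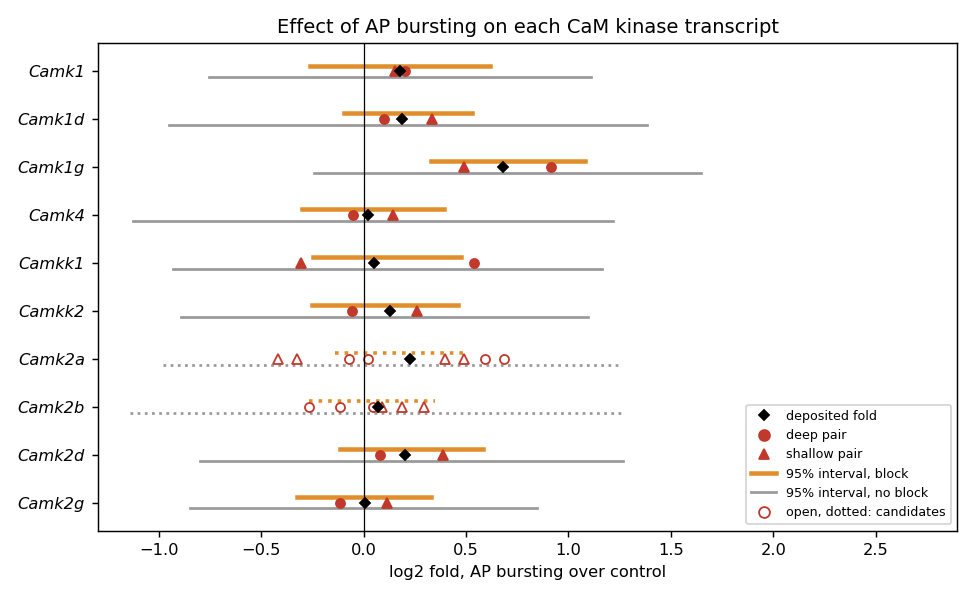
Log2 fold of AP bursting over control for each CaM kinase: black diamonds show the deposited fold, red circles the deep and red triangles the shallow pair, orange lines the 95% limma interval with the replicate block and grey lines without it. Open symbols and dotted lines show the candidate values of Camk2a and Camk2b. The orange line clears 0 for Camk1g alone, from 0.33 to 1.08.

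All 10 kinases had a deposited fold above 1, between 1.00 for Camk2g and 1.60 for Camk1g, with the next highest at 1.17. Of 9342 genes with a mean of at least 300 normalized reads, 53.5% had a fold above 1, and 49.7% did at a mean of at least 50. The median log2 fold of the 10 was 0.15, against -0.002 over the 13939 genes of that wider set. With libraries scaled to total resolved reads, the median of all tested genes moved to -0.16, a shift common to all genes. All 8 resolved kinases lay above the median of all genes under both scalings, while 4 (Camk4, Camk2g, Camkk1 and Camkk2) were below 0 under total reads. Within pairs, 4 of the 8 were higher in both (Camk1, Camk1d, Camk1g and Camk2d) and 4 had pair folds of opposite sign. The share of 13648 resolved genes higher in both pairs was 32.3%.

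**Figure D3:**
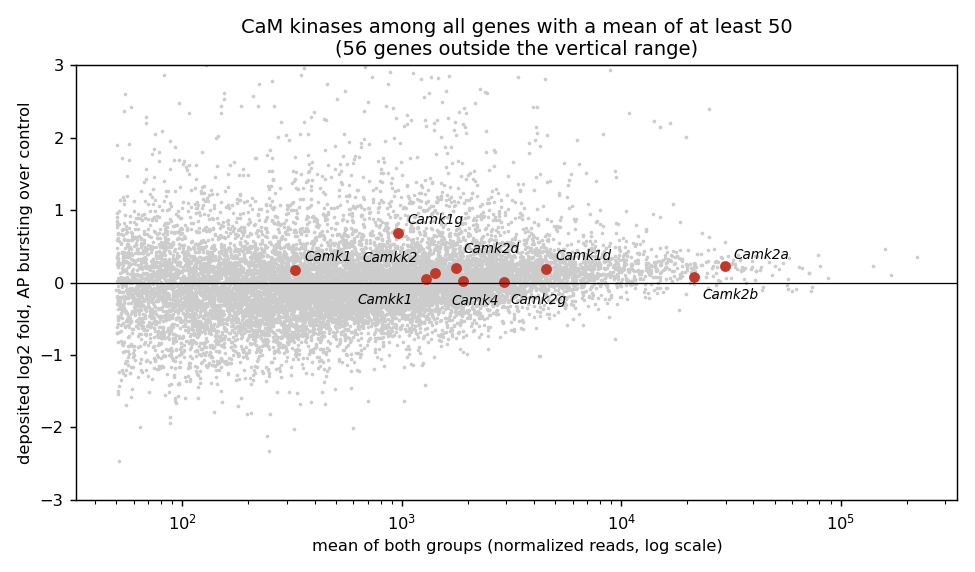
Deposited log2 fold of AP bursting over control against the mean of both groups (normalized reads, log axis) for the 13939 genes whose mean reached 50 in grey, with the 10 CaM kinases in red. Camk1g, at a log2 fold of 0.68, stands highest of the 10, and the other 9 lie between 0.01 and 0.23.

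Libraries of the same group differed in the kinases as well. Camk4 was higher in the deep than in the shallow library by 0.70 on the log2 scale after AP bursting and by 0.90 in controls. Camk1d differed by 0.69 after AP bursting and 0.93 in controls, and Camk2d by 0.43 and 0.73. Camkk2 ran the other way, at -0.65 after AP bursting and -0.34 in controls, and Camk1g did so as well, at -0.11 and -0.54. The 8 resolved kinases kept the sign of this gap in both groups. For Camkk1 (-0.015 after AP bursting, -0.86 in controls) and Camk1 (-0.017 and -0.065) that sign rests on a very small AP bursting gap. The share of all genes that kept the sign was not computed. In 4 of the 8 (Camk1d, Camk2d, Camk4 and Camkk2) both gaps exceeded both pair folds. Over 13648 genes the gaps of the AP bursting and control groups correlated at r = 0.878, across genes that are not independent replicates.

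**Figure D4:**
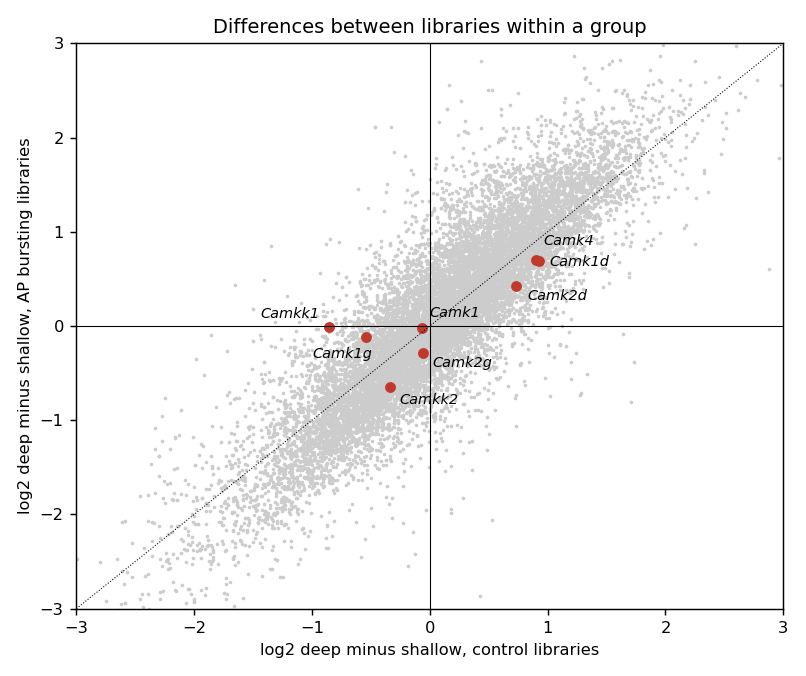
Log2 difference of the deep minus the shallow library in AP bursting libraries (vertical) against the same in controls (horizontal), with genes of a mean of at least 50 in grey and the 8 resolved CaM kinases in red. Camk4, Camk1d and Camk2d lie at the upper right, Camkk1 and Camk1g lie left of 0, and the dotted line marks equal gaps.

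The culture held transcripts of several cell types, and in bulk RNA fewer cells of a type cannot be told apart from less RNA per cell. All 5 listed GABAergic markers had a deposited fold above 1, with a summed level of 43830 normalized reads after AP bursting and 30691 in controls. The 4 of them resolved into libraries summed to 22250 and 28112 in the deep and shallow libraries after AP bursting and 16876 and 17877 in the deep and shallow controls, so they moved in the direction of Camk1g. All 5 astrocyte markers were also above 1, with sums of 11607 and 17140 in the deep and shallow libraries after AP bursting and 10075 and 12585 in the deep and shallow controls. The 5 excitatory markers summed to 30068 normalized reads after AP bursting and 28948 in controls, and 2 of 5 had a fold above 1. The 4 of them resolved into libraries summed to 5611 and 9174 in the deep and shallow libraries after AP bursting, against 10027 and 8217 in the deep and shallow controls. Their sum was thus lower in the deep pair and higher in the shallow one. This need not hold for each marker, since a sum can rest on few of them. The remaining marker, Slc17a7, could not be resolved. Of the pan-neuronal list 3 of 5 genes were matched, summing to 78223 and 73437. Microglial markers summed to 65.4 after AP bursting and 51.6 in controls, oligodendrocyte lineage markers to 1862 and 1610, and the 4 matched endothelial and fibroblast markers to 1320 and 1013. Of these markers 0 passed in the authors' deposited table, and 0 were at 0 in both groups. Their part in the values of the kinases was not tested.

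The patterns most like that of Camk1g across the 4 libraries were those of Zfp704, Baiap2 and Bahd1, by Euclidean distance of centred log2 values (0.107, 0.110 and 0.170) among 13648 genes. Baiap2 stood at 4812 and 4921 normalized reads in the deep and shallow libraries after AP bursting and 2649 and 3527 in the deep and shallow controls. With 4 libraries such a likeness is a description only.

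The genes around the kinases were taken from 6 lists: 57 genes, of which 55 were matched in the table. In either direction, 0 of the 55 passed in the authors' deposited table, and 53 had an adjusted p of 1. Among the 44 resolved genes, the limma block fit called 5 higher and 4 lower, beside the 6.87% and 6.1% over all genes. Without the block each of these 9 had an adjusted p of 1. With the block but no variance trend, limma called 0 of 20226 genes, so these 9 calls rest on that trend too. The small adjusted p-values given below for the block fit share this limit. Calls in lists this short are not read as a result about a list.

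Calm2 and Calm3 encode calmodulin, the calcium sensor of all these kinases. Calm2 stood at 17159 normalized reads after AP bursting and 16905 in controls, and Calm3 at 12683 after AP bursting and 12886 in controls. Their deposited folds were 1.01 and 0.984, and neither could be resolved into libraries.

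Of 6 matched inhibitors, phosphatases and calmodulin buffers, 4 were resolved, and 1 of these was higher and 1 lower with the block. Over all genes the block fit called 6.87% higher and 6.1% lower. Camk2n2, an inhibitor protein of CaMKII, stood at 1750 and 3091 normalized reads in the deep and shallow libraries after AP bursting, against 1227 and 1507 in the deep and shallow controls. Both AP bursting libraries exceeded both controls (log2 fold 0.77, adjusted p = 0.000271 with the block; deposited fold 1.77, adjusted p = 1). Its paralog Camk2n1, named after its value was seen, had 3520 and 1415 after AP bursting and 3459 and 1574 in controls, and a deposited fold of 0.981. Ppm1f, a phosphatase that removes the activating phosphate from CaMKII, stood at 629 and 820 normalized reads in the deep and shallow libraries after AP bursting, against 1142 and 1284 in the deep and shallow controls. Its AP bursting libraries lay below its controls (log2 fold -0.75, adjusted p = 0.00146 with the block). The calmodulin-binding genes Nrgn and Gap43 had deposited folds of 1.06 and 0.915. The list's median log2 fold was -0.03.

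Among 14 other kinases of the CaMK group, 12 were resolved. Limma with the block called 1 of these lower and 0 higher, against 6.1% and 6.87% of all genes. Dclk3, a doublecortin-like kinase, stood at 10.2 and 21.2 normalized reads in the deep and shallow libraries after AP bursting, against 51.7 and 122.5 in the deep and shallow controls. Its deposited fold was 0.180 with an adjusted p of 0.511, and its log2 fold with the block was -2.35 (adjusted p = 3.47e-09), a low gene in both groups. Its relative Dclk1 had a deposited fold of 1.29, Mylk, the myosin light chain kinase, 1.35, and Dapk3, a death-associated kinase, 0.699. The list's median log2 fold was 0.09.

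AMPK and Akt are targets of the CaMKKs. With the block 1 of their 9 genes was higher and 1 lower, against 6.87% and 6.1% of all genes. Prkab2, the beta-2 subunit of AMPK, stood at 3013 and 2522 normalized reads in the deep and shallow libraries after AP bursting, against 1865 and 1372 in the deep and shallow controls (log2 fold 0.79, adjusted p = 0.000148 with the block). Prkaa1, a catalytic subunit, stood at 735 and 274 after AP bursting, against 990 and 483 in controls, overlapping between groups (log2 fold -0.62, adjusted p = 0.0235 with the block). Prkab1 and Prkag2, a beta and a gamma subunit, had deposited folds of 1.37 and 0.823. The median of this list was -0.08.

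Synaptic targets and partners of CaMKII gave 1 higher and 0 lower gene of 9 resolved with the block, against 6.87% and 6.1% of all genes. Grin1, the obligatory NMDA receptor subunit, had 9507 and 17409 normalized reads in the deep and shallow libraries after AP bursting, against 7650 and 10859 in the deep and shallow controls. Its groups overlapped and its deposited fold was 1.45. The scaffold gene Shank3 had a deposited fold of 1.36, and the Rac exchange factor genes Tiam1 and Kalrn had 0.900 and 0.849. The median log2 fold of 13 matched genes was 0.10.

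Of 10 nuclear and growth targets of CaMKI and CaMKIV, 2 were higher and 1 lower with the block, against 6.87% and 6.1% of all genes. Their median deposited log2 fold was 0.31. Crem, whose locus also makes the inducible repressor ICER, stood at 1112 and 586 normalized reads in the deep and shallow libraries after AP bursting, against 376 and 168 in the deep and shallow controls. Both AP bursting libraries lay above both controls, with a deposited fold of 3.12 (adjusted p = 0.485) and a log2 fold of 1.68 with the block (adjusted p = 3.17e-13). Hdac5, a class IIa deacetylase that CaM kinases export from the nucleus, stood at 3695 and 7346 after AP bursting, against 2222 and 3252 in controls (log2 fold 0.96, adjusted p = 2.29e-07 with the block). Creb1, the gene of the CREB factor that CaMKIV phosphorylates, stood at 1004 and 380 in the deep and shallow libraries after AP bursting, against 1878 and 956 in the deep and shallow controls. It was lower in both pairs while its groups overlapped, with a log2 fold of -1.12 with the block (adjusted p = 3.01e-07) and a deposited fold of 0.488 (adjusted p = 1). Mef2a, a neuronal transcription factor, had a deposited fold of 0.870.

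**Figure D5:**
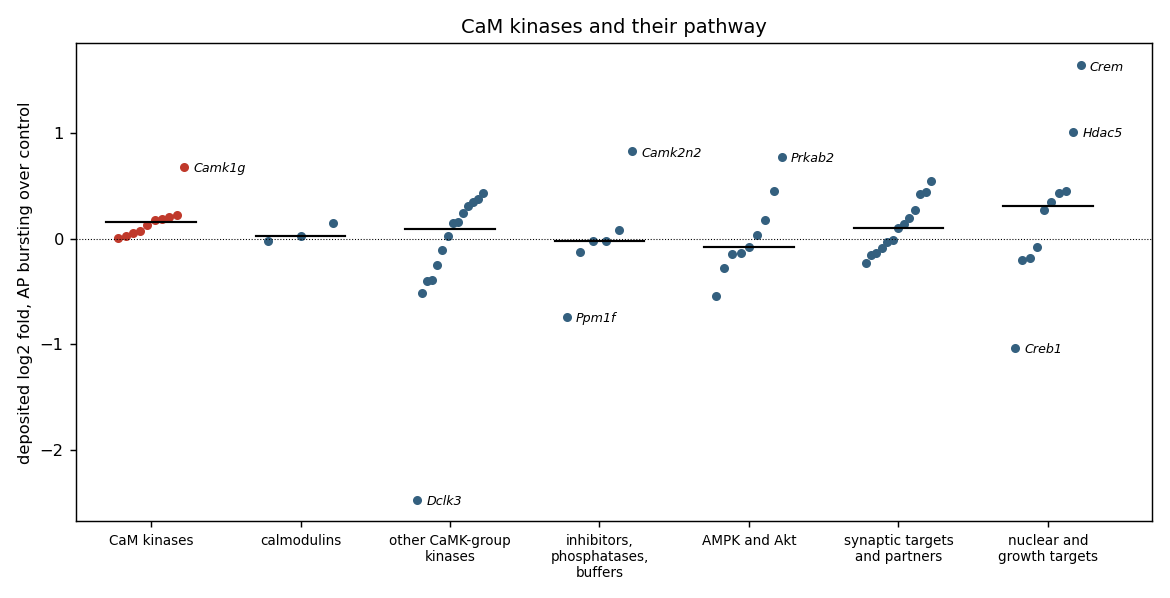
Deposited log2 fold of AP bursting over control for each gene of the CaM kinase family (red) and of the 6 pathway lists (blue), 1 point a gene, with black bars at the medians and names for genes at least 0.6 from 0. The medians run from -0.08 for AMPK and Akt to 0.31 for the nuclear and growth targets, and Crem and Dclk3 lie farthest from 0.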

How the data were processed

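Non-stranded Illumina libraries were made from total RNA, per the labels' protocols. TopHat 1.2.0, SAMtools 0.1.19, DESeq 1.12.0 and build mm9 are named in the submitters' processing notes; no label names the annotation or the counting tool. Per the file headers, the authors deposited for each gene the normalized signal (read counts scaled between libraries) of each group, the fold (ratio) of AP bursting over control, and an adjusted p-value. As the values are group means with no count per library, the edgeR test written into the plan was not run. All per-sample columns were used (0 left out).

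Each mean combines 2 libraries, where 1 read adds a fixed step per library. Steps were fitted from low values, and every mean was searched for whole-read pairs that give it to the precision of its printed 10 digits and of the steps. Exactly 1 pair fitted 99.5% of AP bursting and 98.8% of control values. Of 2000 values moved at random, 6 AP bursting and 10 control values found a pair. These values were drawn below the lowest means that fit several pairs (11362 for AP bursting, 10014.5 for controls). The check therefore does not cover means as high as those of Camk2a and Camk2b. Size factors were 1.27 (deep) and 0.661 (shallow) for AP bursting, and 1.33 (deep) and 0.914 (shallow) for controls. Library replicate numbers are not known. The resolving and the fit were tested on simulated data. In the simulation of the fit the pairs differed alike in both groups, so it does not test the inferred pairing. In that of the resolving, both libraries of a group were drawn around the same level, unlike the real libraries.

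limma 3.58.1 in R 4.3.3 was fitted with a trend to log2(value + 1) of 20226 genes whose mean reached 1. Tests were two-sided, adjusted over all genes after Benjamini and Hochberg, with a threshold of 0.05. Fold changes on this scale understate changes of low genes. The group was the only term, or the pair of libraries was added as a replicate block. The block leaves 1 residual degree of freedom a gene, and the spread in that fit came from the trend across genes alone. Disagreement between the 2 pairs of a gene therefore did not widen its block interval. For Camkk1 the pair log2 folds of 0.54 and -0.31 both lie outside its block interval of -0.25 to 0.48. The pairing comes from the data: deep-minus-shallow gaps of both groups correlated at r = 0.878 across genes. An exact permutation test of 2 against 2 libraries cannot go below p = 0.333, so none is given. Exon lengths came from GENCODE M21 (GRCm38), matched by Ensembl ID. Named list genes are those past the threshold and the 2 highest and 2 lowest folds among members reaching a group mean of 50. The kinases and lists were chosen with earlier results of these data known.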

Additional observations from a re-analysis of the deposited data

How the results depend on the processing

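The count of CaM kinases past the threshold was 0 in the authors' table, also at a threshold of 0.1, and 1 by limma with the replicate block on the libraries. The limma count was 0 under every alternative without the block and under the leave-one-out fits (lowest 0, highest 0). It was 1 with the replicate block, alone or with total-read scaling, pseudocount 10 or filter 50, and 0 with the block and no trend; combinations with the block were chosen after seeing the data. The kinase called was Camk1g each time, with adjusted p between 0.00354 and 0.0468 in these fits. Pathway genes past the threshold were 0 in the authors' table and 9 with the replicate block. Over all genes, the block fit called 1390 higher and 1234 lower, 995 and 1926 with total-read scaling, and 0 of either without the trend (3268 at an unadjusted p below 0.05), against 2 and 0 without the block.

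The log2 folds of Camk1 and Camk1g kept their sign in all 14 alternatives (0.03 to 0.21 and 0.44 to 0.97). Total-read scaling, with or without the block, reversed Camk4 (-0.102), Camkk1 (-0.033) and Camkk2 (-0.046). This scaling lowers every gene alike, and all 8 resolved kinases stayed above the median of all genes (-0.16). Leaving out 1 library in turn reversed Camk1d without the deep AP bursting library (-0.13) and without the shallow control (-0.25; highest 0.68), Camk2d without the shallow control (-0.13; highest 0.60), and Camk4 without the deep AP bursting library (-0.31) and without the shallow control (-0.40; highest 0.49). It also reversed Camkk1 without the deep control (-0.32; highest 0.55) and Camkk2 without the shallow AP bursting library (-0.22) and without the deep control (-0.07; highest 0.43). Camk2g, at 0.00, lay between -0.15 and 0.14. Leaving out 1 library breaks a depth pair, so the gap between deep and shallow libraries enters the fold by construction. Within both pairs Camk1d and Camk2d were higher after AP bursting.

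Per kilobase of exon, the shares of CaMKII were 59.31% for Camk2a, 33.23% for Camk2b, 1.16% for Camk2d and 6.3% for Camk2g after AP bursting, and 56.61%, 35.27%, 1.13% and 7.0% in controls. With each library alone, the share of Camk2a lay between 38.57% and 68.14% after AP bursting and between 45.78% and 59.11% in controls. Camk2b lay between 24.28% and 52.54% after AP bursting and between 30.77% and 46.9% in controls. For Camk2d the ranges were 2.3% to 4.58% and 2.09% to 4.4%, and for Camk2g 4.15% to 5.91% and 5.02% to 6.11%, in the same order. All these ranges join alternative read pairs, so they are wider than a spread between libraries alone may be.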
